A study of Rattus norvegicus with 8 samples.

Results

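Ion channels, pumps and water channels are membrane proteins that let ions or water pass across the plasma membrane or the membranes of organelles. Kcnd3, Asic2, Ano1, Cacna2d1, Atp2a3 and Aqp5 encode such proteins, and DNA methylation near their start sites was compared between rat urothelial carcinomas (UCs) and control bladder. The 6 regions were taken by gene name from the study's published list of 246 promoter regions that were more methylated in all UCs than in all controls, each with the CpGs up to 1000 bp on either side. The list was chosen on the same samples, so the levels of UCs and controls in these regions and beside them are given as a description, and no p is given for them. Where calls are counted there, they repeat the comparison that chose the list.

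The samples were 3 controls and 5 UCs of male F344/DuCrj rats. The rats were 10 weeks old at the start and received dimethylarsinic acid (DMA), a methylated metabolite of inorganic arsenic, in their drinking water at 0 ppm (controls) or 200 ppm (UCs) for 104 weeks. The UCs were tumours seen by eye, of which no histological section was taken, and the sources do not say whether the 5 UCs came from 5 animals. The labels call the controls urothelium and the methods call them bladder tissue, and the mixture of cells in each sample was not estimated. A higher methylation level can therefore come from more methylated cells or from more methylation per cell, which cannot be told apart here.

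Methylation was measured by reduced representation bisulfite sequencing (RRBS), in which DNA is cut at CpG-containing sites, unmethylated cytosines are converted and read as T, and methylated cytosines are read as C. The methylation level of a region is the percentage of C among all C and T calls at its CpGs. Each sample had 2526077 to 2821347 CpGs and 51434938 to 73836223 calls, and CpGs with fewer than 3 reads were not listed. Over 257636 tiles of 200 bp, UC 1 and UC 2 differed by a root mean square of 6.17 points or less, as did UC 4 and UC 5, whereas the controls differed among themselves by 7.07 to 7.22 points and other UC pairs by 13.3 to 14.0 points. At single CpGs the mean chi-square was 1.37 between UC 1 and UC 2, 1.19 between UC 4 and UC 5 and 1.05 to 1.13 between controls, where counting error alone gives 1, and 5.87 to 9.76 in the other UC pairs. Each UC was kept as a sample. Values with each close pair merged, or without UC 3, are given where a result depends on them.

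Cytosines of CpG-rich promoters are as a rule unmethylated in normal tissues, and dense methylation at a start site is a mark found with stably silent genes. Many tumours gain methylation at such promoters while CpG-poor DNA loses it. The genes described here differ in how their proteins work. Kcnd3 encodes Kv4.3, the pore of a rapidly inactivating potassium channel. Asic2 encodes a proton-gated cation channel, and Ano1 a chloride channel opened by calcium. Cacna2d1 encodes the alpha2delta-1 auxiliary subunit of voltage-gated calcium channels, which is also the target of gabapentin. Atp2a3 encodes SERCA3, a pump that moves calcium from the cytosol into the endoplasmic reticulum, and Aqp5 a water channel of glands and epithelia.

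The regions were short, from 22 bp at Cacna2d1 to 204 bp at Atp2a3, and the first base of each and the base after its end both fell on a CpG listed in the files. Start sites were located by matching the spacing of CpGs in RefSeq promoter sequences (build GRCr8) to the CpGs of the files (rn6). The Kcnd3 region (chr2:207923736-207923817) spanned -39 to +42 bp from the start site, the Aqp5 region (chr7:141249013-141249133) -31 to +89 bp, and the Cacna2d1 region (chr4:16130573-16130594) -19 to +2 bp. The Ano1 region (chr1:217902437-217902463) lay +10 to +36 bp and the Asic2 region (chr10:68517484-68517513) +66 to +95 bp into the transcribed side. The Atp2a3 region (chr10:59529190-59529393) stood apart from the other 5, since it lay upstream, at -595 to -392 bp. An annotation of rn6 was not used, so exons and introns are not assigned.

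The 250 bases before a start site are shown for 4 of the genes, since they show where the CpGs with a higher level in every UC lie, and for Kcnip3, whose product binds Kv4 channels and which was the gene of these families outside the list whose promoter passed the test below. The sequences are from RefSeq (GRCr8), 5′ to 3′ on the transcribed strand. Capitals mark the CpGs that were listed in all 8 samples and at which every UC had a higher level than every control.
Kcnd3: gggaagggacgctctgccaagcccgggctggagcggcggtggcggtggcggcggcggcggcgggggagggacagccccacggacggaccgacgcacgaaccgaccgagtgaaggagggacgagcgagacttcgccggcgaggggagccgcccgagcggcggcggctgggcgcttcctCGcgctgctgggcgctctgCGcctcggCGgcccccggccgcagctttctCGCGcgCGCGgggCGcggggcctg
Asic2: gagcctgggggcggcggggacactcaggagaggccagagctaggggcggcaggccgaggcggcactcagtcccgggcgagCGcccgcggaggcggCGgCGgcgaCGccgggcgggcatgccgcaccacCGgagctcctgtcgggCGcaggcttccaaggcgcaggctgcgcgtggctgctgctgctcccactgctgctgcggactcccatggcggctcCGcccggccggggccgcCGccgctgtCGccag
Cacna2d1: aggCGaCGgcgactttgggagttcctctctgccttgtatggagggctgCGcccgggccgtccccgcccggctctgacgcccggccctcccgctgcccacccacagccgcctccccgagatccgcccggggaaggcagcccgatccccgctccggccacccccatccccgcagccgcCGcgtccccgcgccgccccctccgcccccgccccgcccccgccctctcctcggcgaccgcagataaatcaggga
Atp2a3: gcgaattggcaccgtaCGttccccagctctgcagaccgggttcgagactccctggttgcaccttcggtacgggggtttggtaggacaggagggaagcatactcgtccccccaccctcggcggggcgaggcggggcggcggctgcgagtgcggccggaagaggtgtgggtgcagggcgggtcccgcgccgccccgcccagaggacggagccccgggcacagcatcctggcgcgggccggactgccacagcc
Kcnip3: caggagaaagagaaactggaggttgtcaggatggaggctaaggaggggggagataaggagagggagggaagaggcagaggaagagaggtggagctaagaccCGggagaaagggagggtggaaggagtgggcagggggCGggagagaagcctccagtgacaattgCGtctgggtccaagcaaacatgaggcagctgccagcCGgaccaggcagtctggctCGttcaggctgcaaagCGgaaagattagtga
These are chr2:195626066-195626315 (plus strand) for Kcnd3, chr10:66636062-66636311 (minus) for Asic2, chr4:20330148-20330397 (minus) for Cacna2d1, chr10:58080402-58080651 (plus) for Atp2a3 and chr3:135195411-135195660 (minus) for Kcnip3. In Kcnd3, 8 of the 41 measured CpGs are in capitals and all of them lie at the end of the window nearest the start site. In Asic2, 9 of 26 are in capitals and they are spread over most of the window. Atp2a3 has 1 of 24, at its far upstream end. The sequence of Cacna2d1 precedes a start site that lies 273 bp upstream of the one from which its positions are counted elsewhere, so it covers -523 to -274 bp, and 4 of its 23 CpGs are in capitals. In the 250 bp just before the start site used elsewhere, 9 of 21 CpGs of Cacna2d1 had every UC above every control. Kcnip3 has only 6 CpGs in the window, and all 6 are in capitals. Over all CpGs listed in all samples, 8.05% had every UC above every control. The windows of the listed genes overlap or lie near regions chosen in this comparison, and Kcnip3 is shown because its promoter was called. Nothing is therefore read from the size of these counts. Kcnd3 and Aqp5 were the richest in CpGs, with 48 and 49 in the 300 bases of the table, more than 98.96% and 99.13% of all 33469 promoter sequences have. Ano1 had 20 and Kcnip3 had 8, which exceed 75.8% and 52.4% of them.

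All UCs lay above all controls in each of the 6 regions, which is what the list required. Kcnd3, measured over 13 CpGs with 432 to 1114 calls per sample, had a level of 0.737% in control 1, 2.16% in control 2 and 2.33% in control 3. In the UCs it was 25.0%, 16.2%, 6.14%, 19.5% and 13.6% in UC 1 to UC 5, a mean of 16.1% ± 7.0 (SD, n = 5) against 1.74% ± 0.88 (SD, n = 3). UC 3 was the lowest UC, and it was still above the highest control.

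Asic2, over 5 CpGs with 61 to 193 calls, was at 9.84% in control 1 and at 0% in control 2 and control 3, where 0 C calls at 19 and 34.2 reads per CpG allow a level of up to 15.8% and 8.77% (3 reads, since calls of the same read are not independent). The UCs had 30.1%, 42.6%, 33.8%, 22.2% and 25.7%, a mean of 30.9% ± 7.88 (SD, n = 5) against 3.28% ± 5.68 (SD, n = 3). UC 3 was not the lowest here, UC 4 was. Ano1 rested on a single CpG at +36 bp with 22 to 44 reads, of which 1 was a C call in each control (3.13%, 2.27% and 2.63%). The UCs had 41.7%, 45.5%, 16%, 19.2% and 11.4%, so that UC 1 and UC 2 stood above the other three. The 95% Wilson interval of control 1 reached 15.7%, and those of UC 3, UC 4 and UC 5 started at 6.40%, 8.51% and 4.54%. Such intervals and limits cover counting error only.

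The auxiliary subunit gene Cacna2d1 also rested on a single CpG in its region, with only 7 reads in control 2 and 9 in UC 1. Its level was 10.7%, 0% and 3.13% in the controls, where the 0 of control 2 allows up to 42.9%, and 77.8%, 53.6%, 22.9%, 53.3% and 41.9% in the UCs. The wide flanks below carry more weight for this gene than the region. The pump gene Atp2a3 was already partly methylated in the controls, at 22.6%, 36.8% and 39.5%, and was at 81.0%, 93.8%, 77.5%, 83.3% and 86.3% in the UCs. Its mean was 84.4% ± 6.16 (SD, n = 5) against 33.0% ± 9.09 (SD, n = 3), from 16 to 62 calls per sample, and UC 2 lacked 4 of its 7 CpGs. Restricted to the 3 CpGs listed in all 8 samples, the difference of 51.4 points became 62.0 points.

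Aqp5, over 19 CpGs with 327 to 767 calls, was at 6.72%, 5.35% and 6.69% in the controls and at 31.2%, 23.9%, 19.6%, 25.9% and 26.7% in the UCs. Its mean was 25.4% ± 4.24 (SD, n = 5) against 6.25% ± 0.79 (SD, n = 3), so the UCs were closer together than at Kcnd3. Among the 235 listed regions with calls in every sample, the difference ranked 9th for Atp2a3, 17th for Cacna2d1, 56th for Asic2, 75th for Ano1, 112th for Aqp5 and 161st for Kcnd3, against a median over the list of 18.3 points. UC 3 was the lowest UC in 4 of the 6 regions, and without it the difference rose in Kcnd3 from 14.4 to 16.8 points and in Cacna2d1 from 45.3 to 52.0 points.

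**Figure D1:**
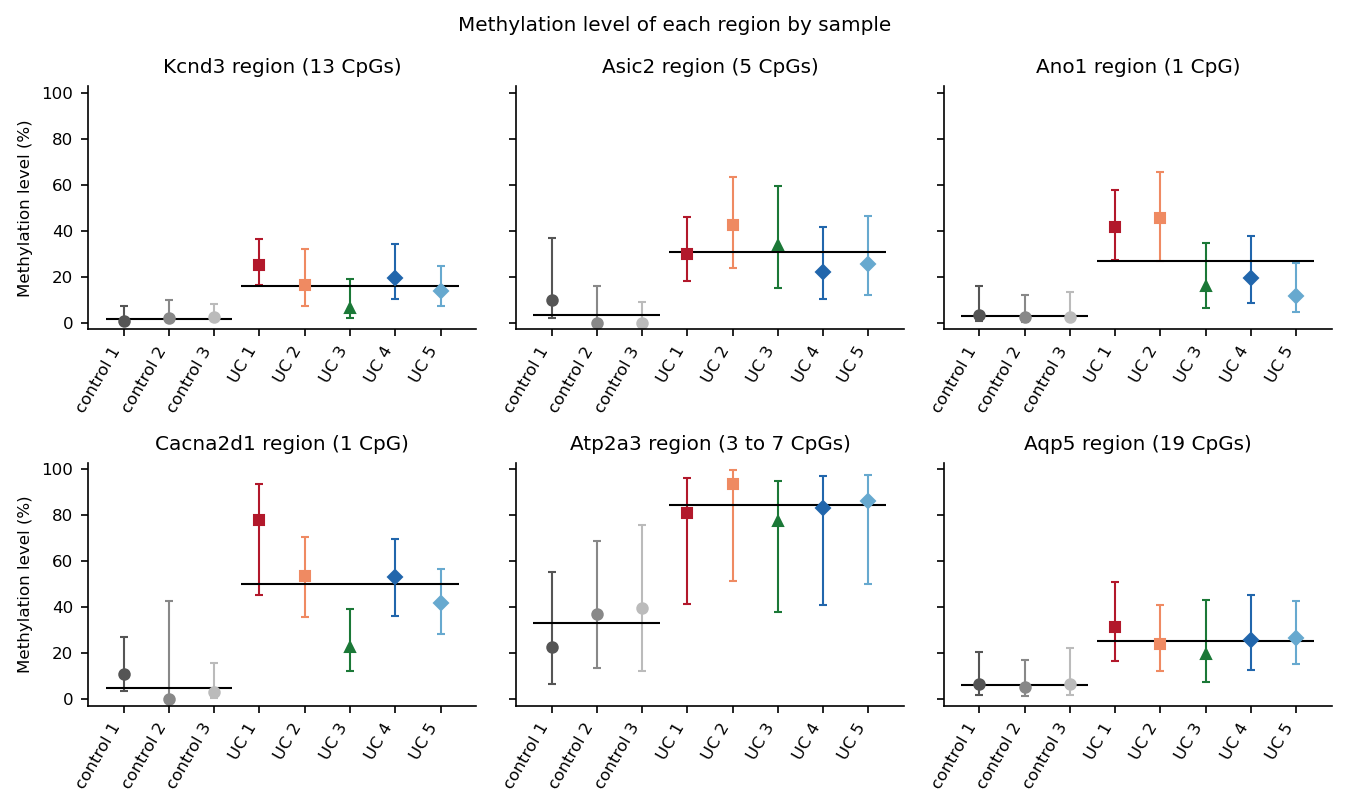
Methylation level (%) of each region in each of the 8 samples, with the group means as horizontal lines. The bars are 95% Wilson intervals with the mean reads per CpG as the number of draws (for a level of 0, the limit that 3 reads give). The levels of the UCs lie above those of the controls in every panel, and Atp2a3 starts from controls of 22.6% to 39.5%.

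CpG by CpG, the 6 genes differed in how far the gain reached, where gain stands for a higher level in the UCs than in the controls, as a description. Of the 483 CpGs within the regions and their flanks that were listed in all samples, 128 (26.5%) had every UC above every control and 0 had every UC below every control. Over all 2048558 CpGs listed in all samples these shares were 8.05% and 6.07%, and since the regions were chosen in this comparison nothing is read from the excess. In the flanks alone the count was 106 of 441. By gene, counting regions and flanks, it was 47 of 102 CpGs at Cacna2d1, 30 of 73 at Asic2, 23 of 103 at Aqp5, 15 of 100 at Kcnd3, 4 of 23 at Ano1 and 9 of 82 at Atp2a3.

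At Kcnd3 the gain began close to the start site on its upstream side. The bins of 100 bp from -600 to -101 bp stayed at 5.02% or less in every sample, while the bin just before the start site was at 1.05%, 1.24% and 1.32% in the controls and at 14.4%, 11.6%, 5.16%, 12.8% and 8.22% in the UCs. The upstream flank, of 74 CpGs, averaged 2.4% ± 0.75 (SD, n = 5) in the UCs and 0.78% ± 0.31 (SD, n = 3) in the controls. On the transcribed side the gain went on, with 10.2% ± 2.81 (SD, n = 5) in the UCs and 1.33% ± 0.26 (SD, n = 3) in the controls over 13 CpGs. Between +123 and +824 bp no CpG was listed in all samples, so where the gain ended on that side was not seen. Within the region neighbouring CpGs differed much. The CpG at -18 bp was at 37.8%, 57.9%, 15.4%, 40% and 30.4% in the UCs, and that at +30 bp was at 2.33% in UC 1 and at 0% in the other four.

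At Asic2 the gain covered the start site and separate measured stretches on both sides. Between -823 and -177 bp and between +329 and +615 bp no CpG was listed in all samples. The CpGs from +155 to +202 bp, with as few as 5 reads, had UC means of 5.0% or less. The upstream flank was at 1.70%, 1.49% and 1.48% in the controls and at 23.7%, 22.6%, 6.81%, 12.8% and 13.3% in the UCs. The downstream flank was at 1.62%, 2.51% and 1.81% in the controls and at 15.8%, 14.6%, 5.81%, 17.2% and 14.6% in the UCs. UC 3, although above the controls in both flanks, had the lowest level of the UCs in each, unlike in the region between them.

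At Ano1, where 23 CpGs were measured, the position of the gain depended on the UC. In the 100 bp before the start site UC 4 and UC 5 were at 21.8% and 20.4%, while UC 1, UC 2 and UC 3 were at 5.66%, 4.0% and 6.22%, close to the 4.73%, 3.41% and 4.69% of the controls. In the 100 bp after it the order was the other way round, with 40.1% and 37.6% in UC 1 and UC 2 against 11.3% and 4.93% in UC 4 and UC 5. Farther into the gene, at +600 to +699 bp, all UCs gained, with 71.6%, 58.9%, 43.3%, 49.2% and 36.4% against 9.21%, 18.2% and 13.7% in the controls. These bins hold 2 to 6 CpGs each.

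Cacna2d1 had every UC above every control at the largest share of its CpGs, 47 of 102, measured from -651 to +594 bp. Its upstream flank was at 4.70%, 1.80% and 1.04% in the controls and at 41.9%, 35.4%, 8.04%, 22.8% and 21% in the UCs, from at least 1809 calls per sample. Its downstream flank was at 2.4%, 1.42% and 1.46% in the controls and at 39.9%, 43.1%, 9.28%, 26.4% and 22.4% in the UCs. The order of the UCs was thus UC 1 and UC 2 highest, then UC 4 and UC 5, with UC 3 far below. That order did not hold at every position. At +500 to +599 bp UC 4 and UC 5 were at 39.6% and 32.2%, and UC 1 and UC 2 at 9.17% and 14.1%.

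Atp2a3 showed 2 gains with an unmethylated stretch between them. Upstream, at -900 to -801 bp, the controls were at 44.0%, 41.9% and 45.4% and the UCs at 96.5%, 92.3%, 51.9%, 95.5% and 93.7%, so that UC 3 stayed near the controls. At -400 to -301 bp the controls were at 28.1%, 15.2% and 18.9% and the UCs at 77.2%, 77.8%, 56%, 62.3% and 58.9%. From -200 bp to +299 bp, over 53 CpGs that include the start site, every bin was at 3.03% or less in every sample. At +400 to +499 bp the level was again partial in the controls (8.33%, 15.7% and 19.5%) and higher in the UCs (68.4%, 60%, 64.0%, 52.0% and 23.1%). That bin held 3 CpGs, with as few as 19 calls in a sample. At +500 to +599 bp, over 4 CpGs, the controls were at 8.85%, 10.2% and 8.14%. The UCs there were at 37.1%, 53.6%, 6.67%, 20.2% and 19.5%, so UC 3 lay below every control. The gain at Atp2a3 thus lay on partly methylated DNA on either side of a start site that stayed unmethylated. UC 3 did not share it in every bin.

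At Aqp5 the gain beside the start site lay just past it. The bin from 0 to +99 bp was at 6.84%, 6.41% and 7.02% in the controls and at 34.8%, 26.5%, 19.3%, 32.0% and 30.8% in the UCs. The upstream flank, over its 78 CpGs, was at 1.89%, 1.09% and 0.991% in the controls and 8.29%, 9.48%, 6.56%, 3.15% and 2.95% in the UCs. One bin of it, at -700 to -601 bp, reached 48.2% and 39.9% in UC 1 and UC 2 but 4.50%, 11.6% and 8.90% in the other UCs. Downstream the DNA was methylated in the controls too, at 50.8%, 55.1% and 52.6%, and at 78.0%, 70.9%, 67.9%, 73.9% and 70.0% in the UCs, over 6 CpGs. These CpGs differed among themselves. At +400 to +499 bp, over 3 CpGs, the means differed by only 3.6 points, and UC 4 (66.7%) lay below every control. At +500 to +599 bp, over 2 CpGs with as few as 17 calls, the means differed by 32.6 points.

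**Figure D2:**
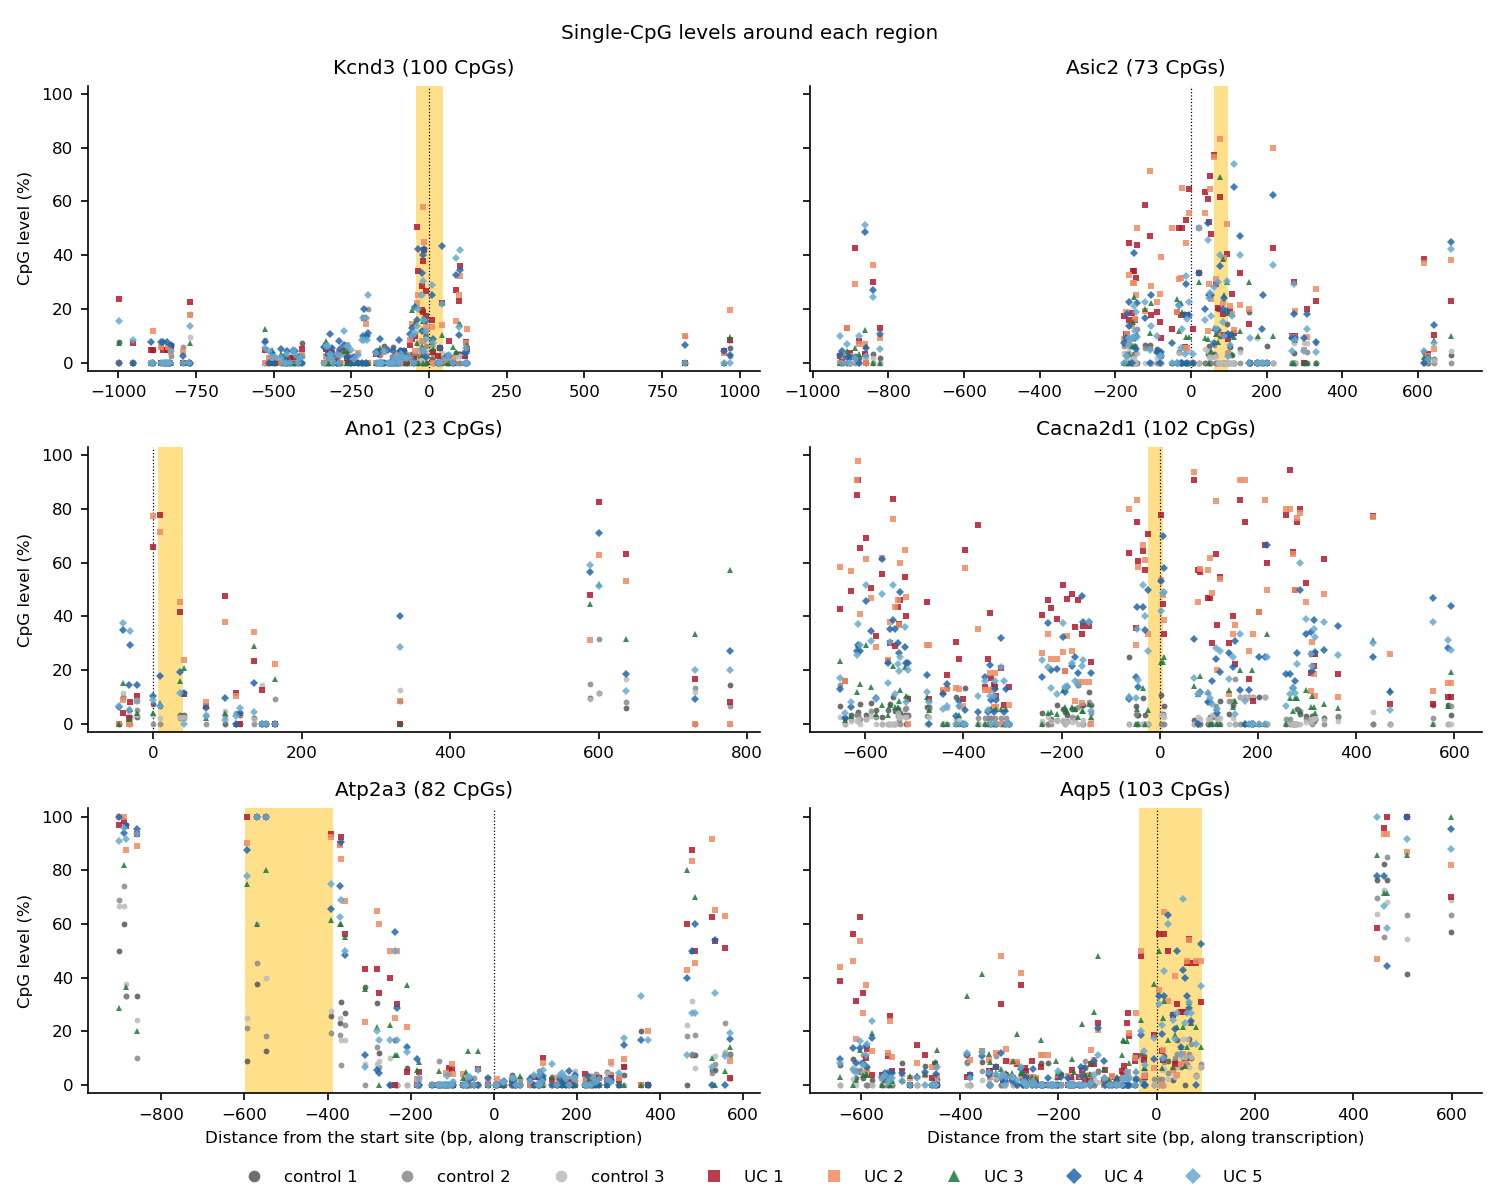
Level (%) of every CpG listed in all 8 samples against its distance from the start site (bp, negative upstream, along transcription), with the listed region shaded (drawn 4 bp wider on each side) and the start site dotted. Kcnd3 gains mainly beside its start site, Cacna2d1 over the whole measured stretch, and Atp2a3 on both sides of a start site near 0%.

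The same differences appeared in tiles. Of the 23 tiles of 200 bp that lay within 1000 bp of a region, did not overlap it and were covered in every sample, 11 were called higher in the UCs and 0 lower. A call needed a Benjamini-Hochberg adjusted p under 0.05 over all tiles and listed regions in the quasi-binomial test and a difference of over 10 points. The background over all 257636 tiles was 9.3% called higher and 7.17% called lower, and, since these tiles lie beside regions chosen in this comparison, their calls are a count only and nothing is read from the excess. Cacna2d1 had 5 of its 6 tiles called, Asic2 and Atp2a3 each had 2, Ano1 and Aqp5 each had 1, and Kcnd3 had none of its 3. With the close UC pairs merged, 3 of the 25 tiles then tested were called.

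The 5 called tiles of Cacna2d1 ran from -624 to -25 bp and from +176 to +575 bp, with differences of 12.4 to 31.7 points. In the tile at -424 to -225 bp UC 3, at 1.90%, lay below control 1 at 1.91%. The tiles called at Asic2 were at -220 to -21 bp and +580 to +779 bp, with differences of 14.0 and 10.0 points. At Atp2a3 they were at -985 to -786 bp and -385 to -186 bp, with 38.4 and 26.8 points. The former, with as few as 4 CpGs in a sample, had UC 3 at 47.1% among controls of 44.4% to 48.3%. The called tile of Ano1, at +474 to +673 bp, was at 10.8% ± 2.35 (SD, n = 3) in the controls and 51.0% ± 8.80 (SD, n = 5) in the UCs, the largest difference of the 23. That of Aqp5, at +356 to +555 bp, had 67.4% ± 2.29 (SD, n = 3) in the controls and 80.0% ± 4.89 (SD, n = 5) in the UCs.

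How the UCs differed among themselves was counted CpG by CpG, with the pairs chosen after the samples had been compared. UC 1 and UC 2 both exceeded every other UC by over 20 points at 52 of the 483 CpGs (10.8%), of which 25 lay at Cacna2d1, 9 at Asic2, 9 at Aqp5, 5 at Ano1, 4 at Atp2a3 and 0 at Kcnd3. UC 4 and UC 5 did so at 6 CpGs and UC 3 alone at 4. Over all CpGs listed in all samples the shares were 2.8% (UC 1 with UC 2), 1.58% (UC 4 with UC 5) and 2.74% (UC 3 alone). Since the regions were chosen for their levels in these same UCs, nothing is read from how these shares differ. Kcnd3 was the gene whose CpGs showed no such split at this limit. Its flanks had UC means of only 2.4% and 10.2%, so few of its CpGs could reach a gap of over 20 points.

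By the root mean square difference of level over the 8 samples, the listed regions most like Kcnd3 were Sp9 (1.95 points) and Slc32a1 (2.10 points), and those most like Aqp5 were Cpne9 (2.64 points) and Pex5l (2.97 points). For Ano1 they were Gpr6 (3.21 points) and Galr1 (4.0 points), and for Asic2 Cacng2 (6.93 points) and Galr1 (7.04 points). Cacna2d1 was nearest to Trank1 (6.66 points) and Actl6b (8.45 points). Atp2a3 had no close neighbour, with Mir2964 at 13.1 points and Mdk at 13.3 points, and its control mean of 33.0% ranked 10th of the 235 regions, where the median was 2.76%. This likeness is of level only, between regions chosen on the same samples.

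The list held 24 further regions of channel, pump, transporter and gap junction genes, of which 19 were covered by 3 CpGs in every sample. All 19 had every UC above every control, and 17 were called higher. Of all 202 listed regions so covered 92.6% were called and 93.1% did not overlap, so the shares of the channel regions were near those of the list. All of these regions were chosen for a higher level in the UCs, and the calls are a count only. Their median difference was 19.6 points. The largest were Cacna1b, the pore of N-type calcium channels, with 31.5 points, and Kcne5, a potassium channel auxiliary subunit, with 30.5 points. The smallest were Slc6a3, the dopamine transporter, with 12.7 points, and Cacnb1, a cytoplasmic calcium channel subunit, with 13.0 points, which was one of the 2 regions not called. UC 3 was the lowest UC in 12 of the 19. The remaining 5 regions were not covered by 3 CpGs in every sample and are not reported here.

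The other genes of the same families were taken by name, and their promoters were tested. They were 40 genes (Kv4 channels and their KChIP subunits, ASICs, anoctamins, alpha2delta subunits, calcium pumps and aquaporins). None of them is on the list, whereas the 6 genes left out of this count are, so it is not the share of whole families. Of the 40, 32 had a RefSeq promoter and 11 could be placed on the CpGs of the files and were covered in every sample. In the quasi-binomial test over all 7761 placed promoters, 1 of the 11 was called higher and 0 lower, and 4 of the 11 had an unadjusted p under 0.05, against 18.1% of all placed promoters. The background was 2.05% called higher and 0.477% called lower. The 4 were Kcnip3, Asic1, Atp2b2 and Aqp3, of which Aqp3 was the lower one in the UCs, with a difference of -0.68 points. The median difference of the 11 was -0.01 points, and that of all promoters 0.06 points.

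The promoter called was that of Kcnip3, which encodes KChIP3, a calcium-binding protein that joins Kv4 pores such as that of Kcnd3 and is also known as the transcriptional repressor DREAM. Its 8 CpGs were at 1.94%, 2.77% and 2.95% in the controls and at 54.7%, 51.8%, 19.2%, 38.2% and 29.3% in the UCs, from 177 to 289 calls per sample. These CpGs lay between positions 120087006 and 120087172 of chromosome 3 in rn6. The rise of 36.1 points, seen in 5 of 5 UCs, had an adjusted p of 0.0132 (quasi-binomial test with limma-moderated dispersion and Benjamini-Hochberg adjustment over all placed promoters). The call was lost with the close UC pairs merged (adjusted p = 0.0747), without moderation (0.0631), with an F-test on percentages (0.171), and when control 1 (0.0615), control 2 (0.0840) or control 3 (0.0829) was left out. Over all alternatives the adjusted p ranged from 0.00314 to 0.171, while the difference stayed between 32.1 and 40.9 points. The promoter is CpG-poor, with 8 CpGs in 300 bases, whereas that of its partner Kcnd3 has 48.

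The other 10 family promoters were not called, and 9 of them were under 2% in every sample. These were the promoters of Asic1, Ano8, Ano10, Cacna2d2, the calcium pump genes Atp2a2, Atp2b1 and Atp2c1, and the water channel genes Aqp3 and Aqp11. Atp2b2, a plasma membrane calcium pump gene that is named after its values were seen, was at 1.67%, 2.26% and 1.11% in the controls and at 8.28%, 8.92%, 4.95%, 2.19% and 3.83% in the UCs, and its group means lay 3.96 points apart. Low promoter levels were the rule, since 92.6% of all placed promoters were under 5% in every control. Paralogues that could be measured, such as Atp2a2 (SERCA2) for Atp2a3 and Cacna2d2 for Cacna2d1, were thus between 0.19% and 1.24% and between 0.38% and 1.66%.

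Over the 300-bp promoter the UC mean of each of the 6 genes was lower than in its listed region. Every UC was above every control in all 6, against 9.06% of all placed promoters, from which nothing is read since the genes were chosen in this comparison. Cacna2d1 was at 5.56%, 1.43% and 0.951% in the controls and 42.3%, 33.0%, 8.03%, 29.4% and 24.3% in the UCs. Asic2 was at 1.76%, 2.08% and 1.57% in the controls and 27.8%, 26.6%, 8.01%, 14.3% and 13.1% in the UCs. Kcnd3 reached 3.83% to 10.7% in the UCs, Aqp5 6.0% to 10.2% and Ano1 7.73% to 27.4%. Atp2a3 reached 1.31% to 3.88%, which is little above the 0.323% to 0.733% of its controls.

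**Figure D3:**
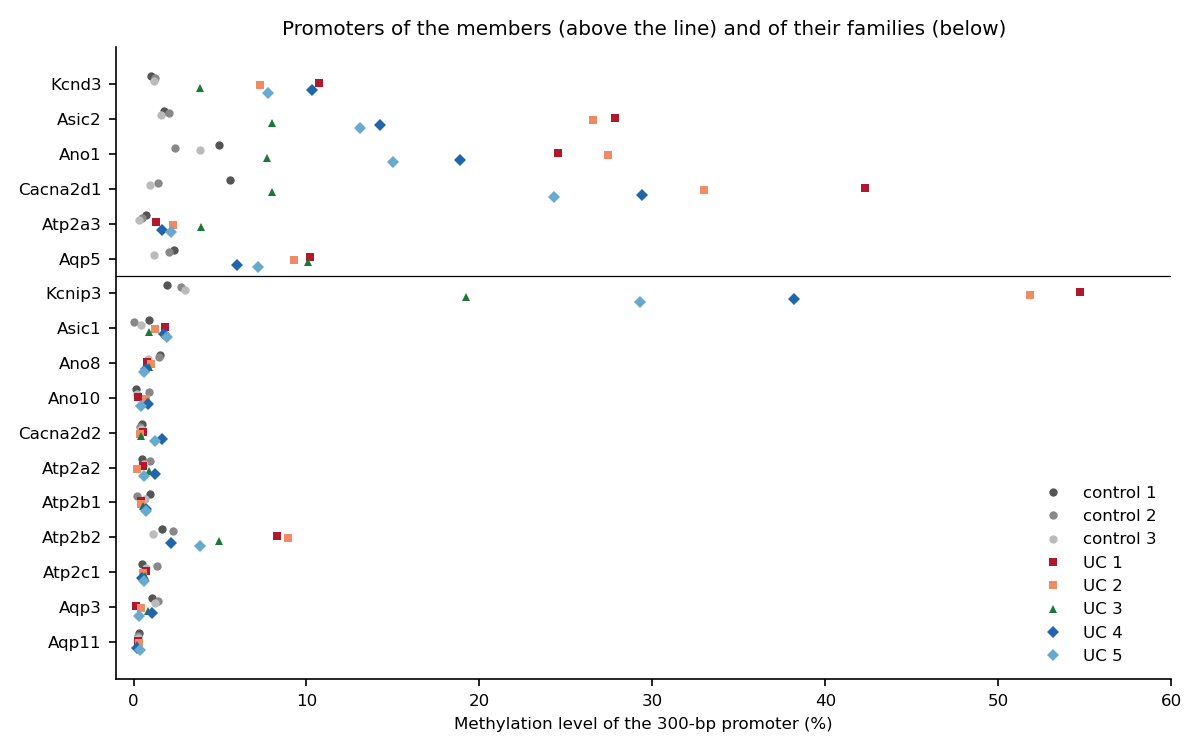
Methylation level (%) of the 300-bp promoter in each sample for the 6 genes (above the line) and the 11 measured genes of their families (below). Kcnip3 is at 19.2% to 54.7% in the UCs, while the other family promoters stay at 8.92% or less in every sample.

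Read depth was not among the values by which the list was chosen, and it was tested. Whether it depends on methylation was not tested. For each gene the calls within 500 kb on either side, at CpGs listed in all samples, were divided by all autosomal calls and set relative to the mean of the controls. Around Cacna2d1, over 436 CpGs, the relative depth was 1.03, 0.99 and 0.98 in the controls and 0.88, 0.90, 0.91, 0.88 and 0.84 in the UCs, so the groups did not overlap. The difference of -0.12 had p = 0.0179 in an exact permutation test (two-sided, 56 divisions of the samples), the smallest p this design can give, and an adjusted p of 0.107 over the 6 genes.

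Around Ano1, over 1451 CpGs, the relative depth was 0.993, 1.004 and 1.004 in the controls and 0.819, 0.799, 0.937, 0.935 and 0.915 in the UCs. The groups did not overlap here either, with UC 1 and UC 2 lowest, and the exact permutation p was 0.0536 (adjusted p = 0.161). Around Kcnd3, Asic2, Atp2a3 and Aqp5 the UCs ranged from 0.93 to 1.06 and overlapped the controls, with adjusted p from 0.321 to 0.732 in the exact permutation test. With 6 genes, 1 gene alone at the smallest p this design can give has an adjusted p of 0.107, so a single difference could not pass. How often the groups separate in this way in other windows of the genome is not given here. The lack of overlap around Cacna2d1 and Ano1 is therefore not read as particular to these genes. Whether the lower depth around Cacna2d1 and Ano1 has a part in their methylation levels was not tested.

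**Figure D4:**
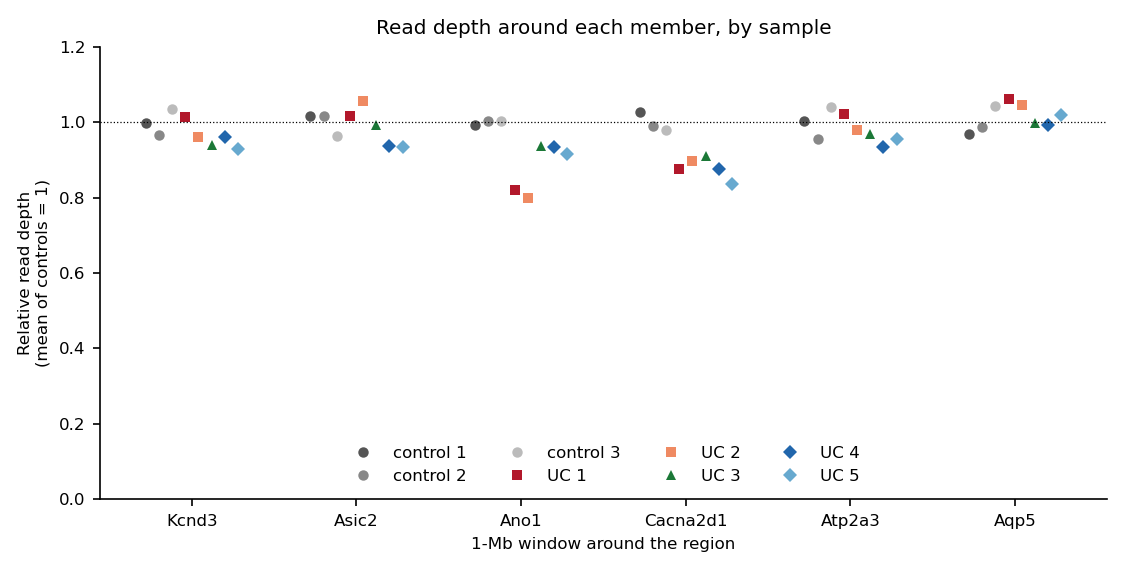
Read depth in the 1-Mb window around each region, relative to the autosomal total and to the mean of the controls (dotted line at 1), for each sample. The UCs lie below all controls around Cacna2d1 (0.84 to 0.91) and Ano1 (0.80 to 0.94) and overlap them around the other 4 genes.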

How the data were processed

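RRBS libraries (MspI and TaqI digestion, single reads of 75 bases) of 3 controls and 5 UCs were aligned by the authors to rn6 with RRBSMAP, with only uniquely aligned reads kept and duplicate reads taken out by barcode. The authors deposited, per CpG with both strands combined, the counts of C calls and of C and T calls, and an expected count (effective calls), which they corrected for base variants. The latter was used only as an alternative.

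Groups came from the sample labels. The genes, lists and tests were chosen with earlier results of these data known. Calls were added up over regions, flanks, 200-bp tiles and promoters, and a tile, listed region or promoter was tested where no sample had fewer than 3 CpGs with 3 reads or more. Of 33469 RefSeq promoter sequences (GRCr8; 250 bases before to 50 after the start), 8692 were placed on the files' CpGs by at least 6 matching CpGs, at most 10% not matching, and no rival placement. Before the chromosome was compared, 99.5% of 8732 unique placements fell on the chromosome of the same name. No coordinate was converted. Where a gene had several placed promoters, the one with most matching CpGs was tested.

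The test was a quasi-binomial model of the calls with dispersion moderated by limma 3.58.1 (R 4.3.3), an F-test and Benjamini-Hochberg adjustment over the whole table (tiles with listed regions, or promoters). It was also run on simulated data in which all samples were independent. That run therefore does not show how the test behaves with the close UC pairs. Nothing in the labels says that the samples are from separate animals, so p-values measure the spread between these samples. Depth was compared by exact permutation tests. Genes named are the 6 listed, the 2 largest and 2 smallest differences among the 19 other channel regions measured, each family promoter called, the 2 nearest regions of each gene, and each called tile. The other family promoters are named to account for all 11. Alternatives were other coverage minimums, CpG weightings, tests, flank and window widths, a replicate block, samples left out and close UC pairs merged. Python 3.11.15 with numpy 2.4.6, pandas 2.3.3, scipy 1.17.1 and matplotlib 3.10.9 was used. Intervals of a region's level are 95% Wilson intervals with the mean reads per CpG as the number of draws, since calls on the same read are not independent. Samples had 51434938 to 73836223 calls, but as few as 7 in the Cacna2d1 region and 16 in that of Atp2a3.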

Additional observations from a re-analysis of the deposited data

Results flagged for a closer look

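In 3 of 35 measures 1 UC stood apart from the other four, by a gap of over 0.71 of the range of the UCs, and in each it was UC 3 as the lowest. Chance marks about 1 in 20 such groups only where the values are independent. The UCs included the close pairs, and UC 3 belonged to none of them, so that rate does not hold here. The measures also share the same samples, and nothing is read from the count of 3 in 35. The upstream flank of Atp2a3 was at 52.5% in UC 3, against 91.5% to 95.8% in the other UCs. The downstream flank of Asic2 was at 5.81% in UC 3, against 14.6% to 17.2%. The downstream flank of Kcnd3 was at 5.39% in UC 3, against 10.5% to 12.3%.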

How the results depend on the processing

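The difference of each region and flank kept its sign under every alternative run and moved by less than 1 SD, except in Atp2a3 with only CpGs listed in all 8 samples (62.0 points), in the downstream flank of Ano1 with flanks of 500 bp (9.90 points), and in the downstream flank of Atp2a3 with the mean of the CpG levels (7.82 points) or flanks of 500 bp (6.86 points). A minimum of 10 reads left no value for the Cacna2d1 and Atp2a3 regions and the upstream flank of Atp2a3.

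Flanking tiles called, 11 of 23 in the report, numbered 5 with an F-test on percentages, 7 without moderation, 7 with a difference over 20 points and 3 of 25 with the close UC pairs merged. They ranged from 4 to 12 with 1 sample left out (6, 5 and 4 without control 1, 2 and 3). The other channel regions called, 17 of 19 in the report, numbered 10 of the 10 then tested with a minimum of 10 reads, 8 with the F-test, 8 with a difference over 20 points, 11 of 20 merged, and 11 to 19 with 1 sample left out (11 without control 1). Family promoters called, 1 in the report, numbered 0 with the F-test, without moderation and merged, and 0 to 1 with 1 sample left out. Tiles called higher, 23954 in the report, ranged from 4404 to 38843, and placed promoters called higher, 159 in the report, from 17 to 198.

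Same-numbered controls and UCs did not deviate together over tiles (correlations of 0.02, -0.01 and 0.04, and 1 of 3 controls correlated best with the UC of its own number). No pairing by number was thus seen, although 3 correlations cannot exclude one. With the replicate block, 7 flanking tiles, 9 other channel regions and 1 family promoter were called. Depth limits the regions of Ano1, Cacna2d1 and Atp2a3 most.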
